A study of Homo sapiens with 6 samples.

Results

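The comparison set 2 clones of MDA-MB-231 that carried TIP-1 shRNA 159 against 2 clones that carried a control shRNA. These are 4 of the 6 samples of the series, chosen by the hairpin named in their titles, and every row of the value table with a gene symbol was tested (21214 of 33297 rows). MDA-MB-231 is a cell line from a human triple-negative breast cancer, of mesenchymal character. A short hairpin RNA (shRNA) is processed in the cell to a small RNA that directs the breakdown of a matching transcript. All 6 samples carried some shRNA, and all were grown in RPMI 1640 with fetal bovine serum, trypsinised and plated again, then held overnight before total RNA was isolated. Affymetrix Human Gene 1.0 ST arrays were used to read it. The other 2 samples carried TIP-1 shRNA 162, and they enter here where a change with shRNA 159 is set beside the second hairpin.

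TIP-1, encoded by TAX1BP3, is a small protein that consists almost wholly of a PDZ domain. It binds the carboxyl-terminal ends of partners such as beta-catenin, and since it has no other domain it can occupy these ends without linking them to further proteins. TIP-1 is known in breast and other cancer cells for its links to cell motility. The comparison asks which transcripts differ when TIP-1 is silenced with this hairpin.

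Values are log2 array signals, so a difference of 1 is a 2-fold change. A gene is said to have risen or fallen where the adjusted p of limma was under 0.05 (Benjamini-Hochberg over all tested rows, two-sided, n = 2 clones per group). "Dim" means that the gene's row lay below the lower quartile of the tested rows on both control arrays. Such rows were not shown to be above background, so their changes are given as differences of signal, which need not equal those of the transcript. The medians of the tested rows lay between 7.86 and 7.91 on the 6 arrays, whose number limits the precision. The correlation of the control clones with each other was 0.9971, and that of the shRNA 159 clones 0.9958, across rows, which are not independent replicates. No row differed by 2-fold or more between the control clones and 1 row did between the shRNA 159 clones, against 51 to 68 rows for a control clone and a shRNA 159 clone. Of the 14 markers of this basal type of line that were measured, 13 were above the array median on all 4 arrays. Each shRNA was represented by 2 clones, so the loss of TIP-1, this hairpin and these clones cannot be told apart within the comparison, and p-values measure the spread between clones.

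TAX1BP3, the target, was lower with shRNA 159. Its row stood at 11.65 and 11.56 in the control clones and at 10.40 and 10.40 in the shRNA 159 clones. The groups did not overlap. TAX1BP3 fell by 1.20 on the log2 scale (SE 0.08, limma adjusted p = 0.00034), to 43.4% of the signal in the control clones. The exact two-sided permutation test of 2 against 2 clones gave p = 0.3333, the smallest that its 6 splits allow. With shRNA 162 the clones stood at 9.85 and 10.01, lower by 0.47 than with shRNA 159 (limma adjusted p = 0.013 for the difference between hairpins). A readthrough transcript, P2RX5-TAX1BP3, shares this row, and its signal cannot be told from that of TAX1BP3. None of the 11 measured binding partners of TIP-1 passed. Since 2.49% of all genes passed, a count of 0 is close to the background. Beta-catenin (CTNNB1), among these partners, stood at 12.20 and 12.19 in the control clones and 12.14 and 12.16 with shRNA 159.

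With shRNA 159, 537 of 21214 rows passed (2.53%), 359 higher (1.69%) and 178 lower (0.839%). At an unadjusted p under 0.05 there were 2995 rows. Most changes were small: 493 of the 537 were under 2-fold, and the median size was 0.56 on the log2 scale. By 2-fold or more, 31 rows rose and 13 fell. The 2 shRNA 159 clones lay outside the range of the control clones for all 537, as they did for 42.4% of all tested rows. The count depended on single arrays. It was 182 without control clone 1, 142 without control clone 2, 247 without shRNA 159 clone 1 and 512 without shRNA 159 clone 2.

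Most of the largest increases came from neighbouring genes. Among the 20 protein-coding genes with the largest increases, 14 lie in a single stretch of chromosome 7. None of the 20 largest decreases lies in a run of neighbours as defined below. Of these decreases, EVI2B is on chromosome 17, which holds a run of lower signals, but outside that run. All 20 increases passed again in each of the 4 fits that leave out 1 of the compared arrays, and so did 19 of the 20 decreases. The exception was SLAMF7 (limma adjusted p = 0.053 without control clone 2). The runs are described after the genes outside them.

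Outside the runs, the largest increases were those of GABRA3, BCHE, PSTPIP2, TULP3, MTSS1 and TENM2. GABRA3, a subunit of the GABA-A receptor that is usual in neurons, stood at 5.97 and 5.99 in the control clones and at 8.86 and 8.48 with shRNA 159. It was dim in the control clones and moved from below the lower quartile to above the median of its array. GABRA3 rose by 2.69 (SE 0.13, limma adjusted p = 4.2e-05). With shRNA 162 it was at 6.01 and 6.21, and the hairpins differed by 2.56 (limma adjusted p = 5e-05). GABRE, another GABA-A subunit gene, rose with shRNA 159 by 0.72, beside 0.70 with shRNA 162. Both genes are on chromosome X, and neither lies in a run. The list of GABA-A and other ligand-gated channels held no other change among its 37 measured members (5.41% passed, against 2.49% of all genes). GABRE lost its call without control clone 1 or 2.

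TULP3, a protein that carries receptors into the primary cilium, stood at 8.46 and 8.15 in the control clones and at 10.06 and 9.86 with shRNA 159. TULP3 rose by 1.65 (SE 0.13, 3.15-fold, limma adjusted p = 0.00051), and by 2.00 with shRNA 162. In all, 4 of the 47 measured genes of ciliary trafficking rose (8.51%) and none fell, where 2.49% of all genes passed in either direction. The others were WDR35 (0.69) of the retrograde transport complex, and IFT172 (0.43) and IFT74 (0.61) of the anterograde one. WDR35 is on chromosome 2 and IFT74 on chromosome 9, which hold runs of higher neighbours, and both lie outside those runs. IFT172 lies in a chromosome 2 run, and only TULP3 and WDR35 kept their calls whichever of the 4 arrays was left out. IFT172 and IFT74 each lost theirs without control clone 2 or shRNA 159 clone 1, and IFT172 also without control clone 1. The lists were chosen with earlier results of these data known, so their shares, here and below, are descriptions.

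PSTPIP2 and MTSS1 encode proteins that bind curved membranes. PSTPIP2, an F-BAR protein, was dim at 5.29 and 5.57 in the control clones and stood at 7.34 and 7.48 with shRNA 159. MTSS1, which binds actin and membranes, stood at 6.57 and 6.90, then at 8.20 and 8.03. PSTPIP2 rose by 1.98 (SE 0.11) and MTSS1 by 1.38 (SE 0.12), with limma adjusted p = 7.3e-05 and 0.001. Both were higher than with shRNA 162, where PSTPIP2 was at 5.60 and 5.57 and MTSS1 at 7.30 and 7.44. BAIAP2L1, of the same family as MTSS1, rose by 0.76, close to its 0.74 with shRNA 162.

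BCHE, butyrylcholinesterase, was the dimmest of the 20 largest increases. Its signal was 3.67 and 3.84 in the control clones and 6.11 and 5.77 with shRNA 159, a change of 2.18 (SE 0.15, limma adjusted p = 0.0003). TENM2, a teneurin of cell contacts, stood at 7.09 and 7.04 in the control clones, 8.22 and 8.30 with shRNA 159, and 6.30 and 6.72 with shRNA 162. It rose by 1.20 with shRNA 159 and fell by 0.56 with shRNA 162, so the clones of the 2 hairpins lay on opposite sides of the control clones (difference 1.75, SE 0.13, limma adjusted p = 0.00029).

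The next increases outside runs were about 2-fold or less. The docking protein DOK4 rose by 1.09 and the scavenger receptor SCARF1 by 1.01. The membrane protein SUSD2 rose by 0.95, the lipase PNPLA4 by 0.93 and the organic anion transporter SLCO4A1 by 0.88. SNAI1, a repressor of epithelial genes, rose by 0.81 and the kinase NUAK2 by 0.79. SCARF1 (0.02 with shRNA 162), PNPLA4 (0.13) and SLCO4A1 (0.17) did not pass with the other hairpin, and each differed between hairpins (limma adjusted p = 0.00042, 0.00083 and 0.0016). DOK4 (0.82), C21orf91 (0.90 against 1.02), HSPA13 (0.85 against 0.91) and IGF2BP3 (0.80 against 0.95) rose with either hairpin. SNAI1 and C21orf91 lost their calls without control clone 2.

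**Figure D1:**
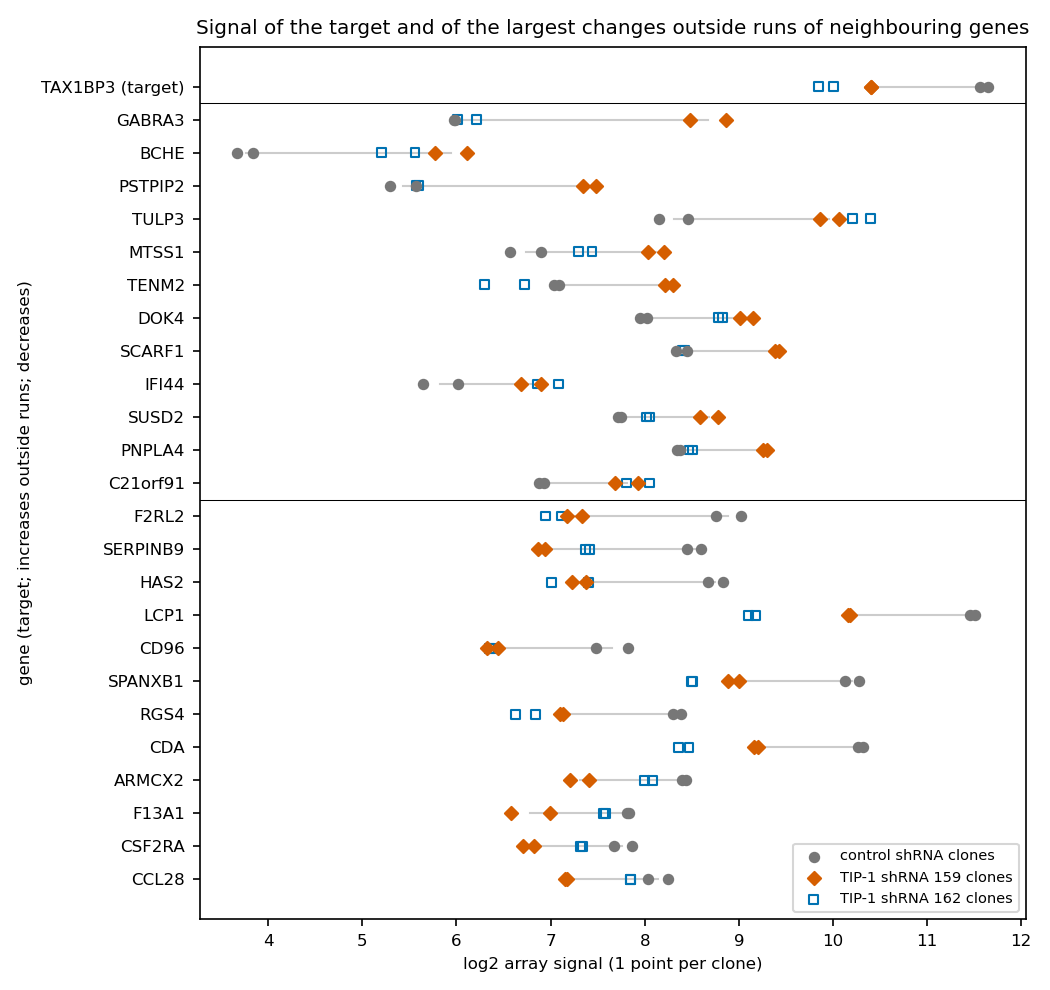
Log2 array signal (horizontal axis) of TAX1BP3, of the 12 largest increases outside runs of neighbouring genes and of the 12 largest decreases (vertical axis), with 1 point for each of the 2 clones of control shRNA, shRNA 159 and shRNA 162, and a grey line joining the means of control and shRNA 159. The shRNA 159 clones lie outside the control clones for every gene shown, and the shRNA 162 clones lie near the control clones for some (GABRA3, SCARF1, PNPLA4) and past the shRNA 159 clones for others (LCP1, CDA, RGS4).

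The decreases included genes of thrombin signalling and clotting. F2RL2, the protease-activated receptor PAR3, stood at 9.02 and 8.76 in the control clones and at 7.33 and 7.17 with shRNA 159. F2RL2 fell by 1.64 (SE 0.11, 3.11-fold, limma adjusted p = 0.0003), and the clones of the groups were more than 1 log2 unit apart. F13A1, the A subunit of clotting factor XIII, which cross-links fibrin, fell by 1.03 (SE 0.12, limma adjusted p = 0.0042). Its clones spread more than most: 6.58 and 6.99 with shRNA 159, against 7.81 and 7.83 in the control clones. F3, tissue factor, the starter of the clotting cascade, fell by 0.72 from 11.45 and 11.28 to 10.70 and 10.59. PROS1, protein S, an anticoagulant cofactor, fell by 0.42.

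In the list of coagulation, plasminogen and protease-activated receptors, 6 of 28 measured members passed (21.4%), 2 higher and 4 lower, against 2.49% of all genes. Like the other lists, it was chosen with earlier results of these data known, so its share does not test the pathway. The list's median was -0.01 and that of all genes was -0.01. The members that rose were PLAU (0.47), the urokinase that activates plasminogen, and the plasminogen receptor PLGRKT (0.67), which lies in a chromosome 9 run. F2RL2, F13A1 and F3 kept their calls whichever of the 4 arrays was left out. PLAU and PROS1 lost theirs in each of the 4 fits, and PLGRKT without control clone 1 or 2. The thrombin receptor gene F2R stood at 8.43 and 8.31 in the control clones and at 8.40 and 8.30 with shRNA 159. F2RL2 also fell with shRNA 162, by 1.86, while F13A1 changed there by -0.25 and differed between hairpins by -0.78 (limma adjusted p = 0.0075).

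HAS2, a synthase of hyaluronan, the long sugar polymer of the pericellular coat, stood at 8.67 and 8.83 in the control clones and at 7.38 and 7.23 with shRNA 159. HAS2 fell by 1.44 (SE 0.13, 2.72-fold, limma adjusted p = 0.0012). HAS2 was the only one of 20 measured genes of hyaluronan synthesis, receptors and breakdown to pass (5.0%, against 2.49% of all genes). CD44, the main hyaluronan receptor, stood at 13.35 and 13.31, then at 13.41 and 13.32, and HAS3 at 8.07 and 7.94, then at 7.96 and 8.05.

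Among 50 measured matrix proteases and inhibitors, 2 rose and 5 fell (14.0%, against 2.49% of all genes), with a median of -0.09. ADAMTS1, a protease of proteoglycans, stood at 9.96 and 10.04 in the control clones and at 9.14 and 8.94 with shRNA 159. CTSC, the lysosomal cathepsin C that activates granule proteases, stood at 12.12 and 12.02, then at 11.20 and 11.14. The groups were apart for both, by 0.96 and 0.90 (limma adjusted p = 0.0013 and 0.00095). The metalloprotease inhibitor TIMP3 fell by 0.52, the serpin SERPINE2 by 0.40 and the membrane protease ADAM9 by 0.42. ADAM17, the sheddase of TNF, rose by 0.53 and lies in a chromosome 2 run, and ADAMTS6 rose by 0.55. ADAMTS1 and CTSC kept their calls whichever array was left out. ADAM9, SERPINE2 and ADAMTS6 lost theirs in each of the 4 fits, TIMP3 in each fit but that without control clone 1, and ADAM17 without control clone 1 or 2. ADAM9 rose by 0.33 with shRNA 162, and the hairpins differed by -0.75 (limma adjusted p = 0.0012).

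Of 62 measured genes of collagens, laminins and other matrix, 1 rose and 3 fell (6.45% passed, against 2.49% of all genes), with a median of -0.01. COL12A1, a collagen that coats fibrils, fell by 0.77, the fibrillin FBN1 by 0.53 and the thrombospondin THBS1 by 0.40. EFEMP1, a fibulin of elastic fibres, rose by 0.78 and lies in a chromosome 2 run. THBS1 lost its call whichever array was left out and FBN1 without either control clone, while COL12A1 and EFEMP1 kept theirs.

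Genes of the actin skeleton and of adhesion changed singly. LCP1, the actin bundler L-plastin, was bright, at 11.51 and 11.46 in the control clones and 10.18 and 10.16 with shRNA 159. LCP1 fell by 1.31 (SE 0.08, limma adjusted p = 0.00011). The decrease with shRNA 162 was larger (it fell by 2.34), with a difference of 1.03 between hairpins (limma adjusted p = 0.00029). DIAPH2, a formin that builds straight actin filaments, fell by 0.89 from 8.90 and 8.82 to 8.12 and 7.83, and stood at 9.04 and 8.90 with shRNA 162. Its call was lost without control clone 1. No other of the 54 measured actin genes passed, a share of 3.7% against 2.49% of all genes. PLS3, a relative of LCP1, stood at 11.85 and 11.77 in the control clones and at 11.82 and 11.74 with shRNA 159.

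Of 39 measured integrin and focal adhesion genes, LPXN (leupaxin, a focal adhesion adaptor) fell by 0.81 and the collagen receptor subunit ITGA2 by 0.42, and none rose. The share was 5.13%, against 2.49% of all genes. ITGA2 lost its call whichever array was left out, and LPXN and PCDH20 without control clone 2. Of 48 measured cadherins and adhesion molecules, CD96, a receptor of nectins, fell by 1.27, the protocadherin PCDH20 fell by 0.59 and ICAM1 rose by 0.45 (6.25%). CD96 stood at 7.48 and 7.82 in the control clones, 6.33 and 6.44 with shRNA 159, and 6.35 and 6.39 with shRNA 162. ICAM1 kept its call in no fit with 1 of the 4 arrays left out.

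LCP1 and CD96 are also markers of leukocytes. These 2 were the only ones of 18 measured leukocyte markers to pass (11.1%, against 2.49% of all genes). Of the 18, 7 lay below the lower quartile on all 4 arrays. The markers' mean log2 signal was 7.55 and 7.62 in the control clones and 7.35 and 7.49 with shRNA 159. PTPRC, which encodes the pan-leukocyte antigen CD45, lay at 5.10 and 4.84 in the control clones and at 5.13 and 5.03 with shRNA 159, far below the array medians. The samples were clones of a single breast cancer line, so these values are read as signals of that line. In bulk RNA, fewer cells that hold a transcript and less of it per cell cannot be told apart.

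SERPINB9, which blocks granzyme B, stood at 8.60 and 8.45 in the control clones and at 6.87 and 6.94 with shRNA 159. SERPINB9 fell by 1.62 (SE 0.08, limma adjusted p = 6.1e-05), more than the 1.14 with shRNA 162 (difference -0.48, limma adjusted p = 0.011). It was the only one of 17 measured clade B serpins and granzymes to pass (5.88%, against 2.49% of all genes). CSF2RA, the alpha chain of the GM-CSF receptor, fell by 0.99, the chemokine gene CCL28 by 0.98, and the receptor gene SLAMF7 by 0.91. EVI2B, a membrane protein of blood cells, fell by 0.96. The decreases of CCL28 (-0.29 with shRNA 162), EVI2B (-0.23) and SLAMF7 (0.10) were larger than with the other hairpin (limma adjusted p = 0.0034, 0.0036 and 0.0019). None of 15 measured antigen presentation genes passed, a count close to the background of 2.49%.

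RGS4, which shortens G protein signals, fell by 1.23 (SE 0.09, limma adjusted p = 0.00046). It was the only one of 23 measured RGS genes to pass (4.35%, against 2.49% of all genes). Its clones stood at 8.30 and 8.39 in the control group and at 7.13 and 7.10 with shRNA 159. CDA, the deaminase of cytidine, and AOX1, an oxidase of purines and aldehydes, alone passed among 36 measured genes of nucleotide salvage and catabolism (5.56%). CDA stood at 10.32 and 10.27 in the control clones and at 9.16 and 9.20 with shRNA 159, and AOX1 at 9.48 and 9.39, then at 8.56 and 8.43. They fell by 1.11 and 0.93 with shRNA 159. CDA was lower still with shRNA 162, at 8.36 and 8.47, whereas AOX1 was at 8.37 and 8.39.

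The chromatin remodeller SMARCA1 fell by 0.95 with shRNA 159 and by 2.05 with shRNA 162. ARMCX2 (-1.11), the phospholipid phosphatase PLPP4 (-0.93) and TC2N (-0.97) were lower than with shRNA 162, where they changed by -0.38, -0.24 and 0.24. SPANXB1, a cancer/testis antigen, fell by 1.25, but the copies of the SPANX family are almost the same and several rows hold the same values, so which copy was read is uncertain.

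The hypoxia and glycolysis genes included 1 increase and 3 decreases among 45 measured members (8.89% passed, against 2.49% of all genes), with a median of -0.11. PLOD2, a lysyl hydroxylase of collagen, had a mean of 11.01 ± 0.01 (SD, n = 2) in the control clones and stood at 10.32 and 10.31 with shRNA 159. The glycolytic enzyme genes ALDOC, at 7.75 and 7.82, then 7.15 and 7.14, and HK2, at 10.52 and 10.62, then 10.11 and 10.07, were lower too. PLOD2 fell by 0.70, ALDOC by 0.64 and HK2 by 0.48 (limma adjusted p = 0.0022, 0.0041 and 0.016). ALDOC is on chromosome 17, which also holds a run of neighbours with lower signals, and lies outside that run. Whether its position bears on its change was not tested. HK2 lost its call whichever of the 4 arrays was left out, and ALDOC without control clone 2. EPAS1, the hypoxia factor HIF-2 alpha, went the other way, from 8.88 and 8.85 to 9.87 and 9.72, and lies in a chromosome 2 run. EPAS1 rose by 0.93 with shRNA 159 and fell by 0.59 with shRNA 162 (difference 1.51, limma adjusted p = 5.9e-05).

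The core of the hypoxia response element, ACGTG, was searched on both strands of 300-base RefSeq promoter windows (250 bases before to 50 after the start, GRCh38.p14). It was present in 18 of 40 windows of the list (45.0%) and in 24.0% of all 14239 windows of measured genes. The windows of PLOD2, ALDOC and HK2 held it. The stretches before the starts of PLOD2 (chr3:146161301-146161409, minus strand) and ALDOC (chr17:28576896-28577145, minus strand) are shown because they belong to the decreases of the list that were kept in 3 or 4 of the 4 fits. Capitals mark ACGTG or its reverse complement. In ALDOC the first pair of matches overlaps in a palindrome.
PLOD2: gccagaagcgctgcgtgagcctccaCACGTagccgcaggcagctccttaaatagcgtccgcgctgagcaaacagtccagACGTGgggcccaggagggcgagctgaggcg
ALDOC: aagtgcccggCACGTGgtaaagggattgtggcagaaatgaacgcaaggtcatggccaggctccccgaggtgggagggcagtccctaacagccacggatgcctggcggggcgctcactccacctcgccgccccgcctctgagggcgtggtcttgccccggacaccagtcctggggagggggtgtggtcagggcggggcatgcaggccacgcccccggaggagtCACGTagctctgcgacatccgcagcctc

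Among inflammatory genes, 3 of 41 measured NF-kB factors, cytokines and chemokines rose and 1 fell (9.76% passed, against 2.49% of all genes), with a median of 0.09. The cytokine IL6, dim at 6.68 and 6.69 in the control clones, was at 7.33 and 7.20 with shRNA 159, an increase of 0.58. IL1B fell by 0.49, ICAM1 rose by 0.45, and REL, a subunit of NF-kB, rose by 0.53 and lies in a chromosome 2 run. The list's count was 0 without control clone 1, 0 without control clone 2, 1 without shRNA 159 clone 1 and 4 without shRNA 159 clone 2.

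Of 52 measured genes of the type I interferon response, 3 rose and none fell (5.77% passed, against 2.49% of all genes), with a median of 0.07. IFI44, an interferon-induced protein, was dim in the control clones at 6.02 and 5.64, and at 6.90 and 6.69 with shRNA 159. It rose by 0.97 (SE 0.14, limma adjusted p = 0.0098), beside 1.14 with shRNA 162. SAMD9 (0.69) and SAMD9L (0.52, dim), antiviral factors and neighbours in the chromosome 7 run, rose less than with shRNA 162 (1.24 and 1.02, limma adjusted p = 0.015 and 0.022 for the differences). ISG15 stood at 8.37 and 8.17 in the control clones and at 8.28 and 8.49 with shRNA 159. MX1, which was dim, stood at 6.14 and 6.17, then at 6.06 and 6.30, so these 2 inducible genes overlapped between groups. No interferon call lasted without control clone 2 or without shRNA 159 clone 1.

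The core of the interferon-stimulated response element, GAAA then any 2 bases then GAAA, was present on either strand in 26 of 40 windows of the list (65.0%) and in 3.04% of all windows. IFI44 and SAMD9 had it. Their stretches (IFI44 at chr1:78649746-78649788, plus strand, SAMD9 at chr7:93118081-93118140, minus strand) are shown with the match in capitals, on the opposite strand in IFI44. The same letters stand in windows of list members that did not pass.
IFI44: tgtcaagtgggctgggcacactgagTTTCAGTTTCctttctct
SAMD9: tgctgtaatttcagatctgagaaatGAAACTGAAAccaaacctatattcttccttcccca

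Regulators of epithelial and mesenchymal state moved in both directions. EPCAM, an epithelial adhesion molecule, rose by 0.94 from 7.01 and 7.09 to 7.97 and 8.02, and the tight junction gene CLDN4 rose by 0.58, while each lies in a run. SNAI1 rose by 0.81 and its relative SNAI2 fell by 0.39. In all, 3 of 40 measured members rose and 1 fell (10.0% passed, against 2.49% of all genes), with a median of -0.02. EPCAM kept its call whichever array was left out, SNAI2 lost its own in each case, and CLDN4 lasted only without shRNA 159 clone 2. VIM stood at 13.19 and 13.18 in the control clones and at 13.11 and 13.08 with shRNA 159, and CDH1 (E-cadherin, dim) at 6.34 and 6.40, then at 6.22 and 6.29.

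Of 38 measured YAP/TAZ factors and targets, NUAK2 rose and IGFBP3 (-0.84, a binding protein of insulin-like growth factors) and F3 fell (7.89%, against 2.49% of all genes). All 3 calls lasted whichever of the 4 arrays was left out. EPHA4, an ephrin receptor, fell by 0.68, and the ligand gene EFNB2 fell by 0.40, among 57 measured EGF ligands, receptor kinases and ephrins. The share of that list was 3.51%, near the 2.49% of all genes. Among 34 measured genes tied to metastasis of this line, EPAS1 and FST (0.45, the inhibitor of activin) rose and ADAMTS1 fell (8.82%). EFNB2 lost its call whichever array was left out, and FST in each fit but that without shRNA 159 clone 2.

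Other lists held single changes, where 2.49% of all genes passed. Among 21 measured genes of cholesterol synthesis and uptake (9.52% passed), the demethylase CYP51A1, a member of the chromosome 7 run, rose by 0.65, and the sterol carrier STARD4 fell by 0.47. The glutathione transferase GSTM3 fell by 0.69 among 35 measured genes of oxidative stress (2.86%). Among 35 measured genes of the unfolded protein and amino acid response (2.86%), the disulfide isomerase PDIA6 rose by 0.39. PDIA6 is on chromosome 2, outside the runs there. In autophagy (51 measured, 5.88% passed), ELAPOR2 and GABARAPL1 (0.58) rose and the kinase ULK2 fell by 0.50. In chromatin remodelling (55 measured, 7.27% passed), KDM4C, BAZ1B (0.72) and HMGN3 (0.42) rose and SMARCA1 fell. KDM4C lies in a chromosome 9 run and BAZ1B in the chromosome 7 run. STARD4, PDIA6 and HMGN3 lost their calls whichever array was left out, GSTM3 without control clone 2, BAZ1B without control clone 1, and ULK2 and GABARAPL1 in 3 of the 4 fits. No luminal marker but EPCAM passed among 15, and none of 15 fibroblast and endothelial or 13 melanocyte and neural markers did.

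No member passed in the lists of Wnt/beta-catenin targets (22 measured), oxidative phosphorylation (33), serine and one-carbon metabolism (17), mitosis (44), p53 targets (28), apoptosis regulators (35), the small RNA and double-stranded RNA machinery (24) and cytosolic ribosomal proteins (42). Their medians lay between -0.02 and 0.08. At a background of 2.49%, lists of this size would hold about 1 passing gene or fewer, so a count of 0 is close to the background. AXIN2, a direct Wnt target, stood at 7.38 and 7.46 in the control clones and at 7.40 and 7.42 with shRNA 159. MYC stood at 10.88 and 10.98, then at 11.24 and 11.16, a change of 0.27 that did not pass (limma adjusted p = 0.17).

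**Figure D2:**
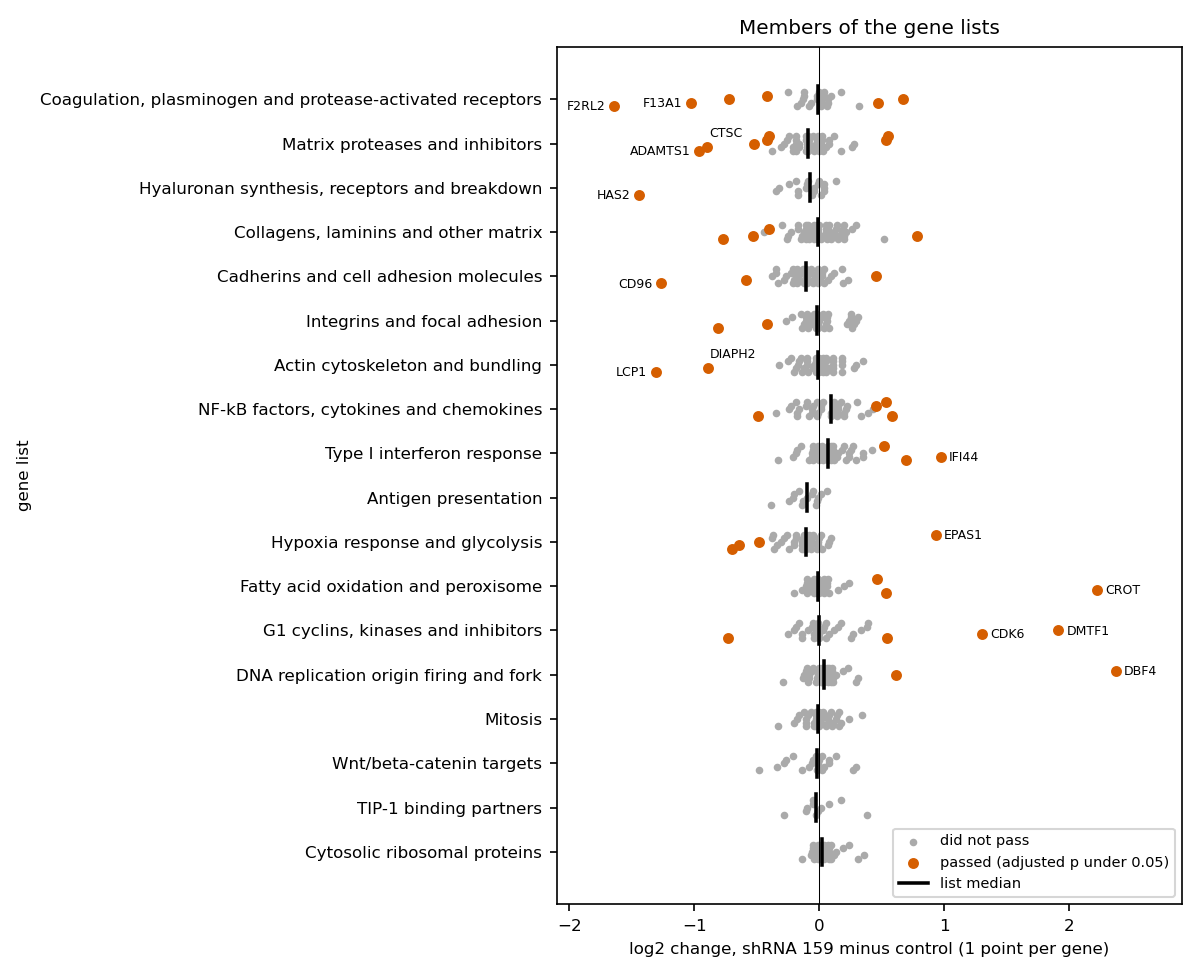
Log2 change of shRNA 159 minus control (horizontal axis) of each measured member of 18 gene lists (vertical axis), with passing members in orange, others in grey, and the list median as a black bar. The medians lie between -0.11 and 0.09, and the members past 2-fold are F2RL2, F13A1, HAS2, CD96 and LCP1 on the lower side, and CROT, DMTF1, CDK6 and DBF4 on the higher side.

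When genes were placed in chromosomal order, 8 runs held many of the changes. A run was any window of 15 consecutive measured genes with a mean change beyond 0.3 on the log2 scale and 5 or more members that passed, with overlapping windows joined and trimmed to their first and last passing gene. The runs were picked by their values in this comparison, so their counts are descriptions. They held 344 of 18417 genes, of which 168 passed (48.8%), against 291 of 18073 genes outside them (1.61%). Of 29 genes that rose by 2-fold or more, 21 lay in runs, and of 11 that fell by 2-fold or more, none did. With the rows of these genes left out, 362 rows passed, 197 higher and 165 lower.

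The run on chromosome 7 reached from TYW1B to VPS50. Of its 99 genes 57 rose, none fell, and the median was 0.54 (0.55 in clone 1 and 0.51 in clone 2, each against the mean of the control clones). Over the whole chromosome, 63 of 833 genes rose (7.56%), against 1.7% of all genes. The same genes had a median of 0.30 with shRNA 162, where 45 of the 99 rose (5.88% of all rows did), and 28 were higher with shRNA 159 than with shRNA 162 (4.02% of all rows were). Leaving out 1 array left 30 to 53 of the 57 calls, the fewest without control clone 1.

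Within the run the size of the change followed position. Stretches were set after the values were seen. The first stretch, from TYW1B to PHTF2, had a median of 0.37 (24 of 52 genes rose), and none reached 2-fold. The next 7 genes, RPL13AP17 to PCLO, held no change, and 4 of them, the growth factor gene HGF included, lay below the lower quartile on all 4 arrays. SEMA3E and SEMA3A then rose, and SEMA3D did not pass. From GRM3 to GTPBP10, 19 of 21 genes rose, with a median of 1.41 and a range of 0.28 to 3.29, and 20 of the 21 were higher than with shRNA 162, where the median was 0.41. Beyond it, from CLDN12 to VPS50, 12 of 16 rose and the medians of the hairpins were 0.60 and 0.59.

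ELAPOR2, a membrane protein named for endosomes and lysosomes, had the largest change of all genes. It stood at 7.52 and 7.54 in the control clones, 10.76 and 10.89 with shRNA 159, and 8.04 and 7.96 with shRNA 162. ELAPOR2 rose by 3.29 with shRNA 159 (SE 0.08, 9.8-fold, limma adjusted p = 1.4e-06), and the hairpins differed by 2.82. The shRNA 162 clones lay just above the control clones, and the shRNA 159 clones far above both.

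Neighbours with roles in metabolism and transport rose too. SLC25A40, a carrier of the inner mitochondrial membrane, stood at 8.86 and 8.54 in the control clones and at 11.05 and 11.09 with shRNA 159. CROT, which moves medium-chain fatty acids out of peroxisomes as carnitine esters, stood at 7.55 and 7.39, then at 9.75 and 9.63. They rose by 2.37 (SE 0.11) and 2.22 (SE 0.10), each with limma adjusted p = 3.6e-05. STEAP2 and STEAP4, reductases of iron and copper, rose by 1.62 and 0.95, and their relative STEAP1 rose by 1.10. The calcium-binding protein sorcin, SRI, was bright, at 11.32 and 11.24 in the control clones and 12.94 and 12.90 with shRNA 159. ABCB1, the drug efflux pump P-glycoprotein, rose by 0.78 and the lipid transporter ABCB4 by 0.64. Both were dim in the control clones, ABCB1 at 6.20 and 6.39 against 7.03 and 7.12 with shRNA 159, and its call was lost whichever array was left out, that of ABCB4 without control clone 1.

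Cell cycle genes of the run were DBF4, CDK6 and DMTF1. DBF4, the activating subunit of the CDC7 kinase that fires replication origins, was dim at 5.80 and 5.78 in the control clones and stood at 8.15 and 8.18 with shRNA 159. It rose by 2.37 (SE 0.07, limma adjusted p = 4.7e-06), and by 0.64 with shRNA 162. DMTF1, a factor that induces the ARF tumour suppressor, rose by 1.91 from 8.97 and 8.88 to 10.87 and 10.80. CDK6, the G1 kinase, stood at 9.68 and 9.65, then at 11.10 and 10.84, with 10.85 and 10.92 for shRNA 162. CDK6 rose by 1.30 with shRNA 159 and by 1.22 with shRNA 162, a difference of 0.09 that did not pass (SE 0.10, limma adjusted p = 0.66).

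The lists that hold these genes showed few changes away from the run. Of 33 measured G1 cyclins, kinases and inhibitors, 12.1% passed, against 2.49% of all genes. DMTF1 and CDK6 of the run and E2F6 (0.54) rose. E2F6 is on chromosome 2, which holds runs of higher neighbours, and lies outside those runs. CCND2, cyclin D2, fell by 0.73 from 7.70 and 7.64 to 6.89 and 7.01. Of 49 measured genes of DNA replication, only DBF4 and RFC2 (0.61, a clamp loader subunit) rose (4.08%), and both lie in the run. Of 37 measured genes of fatty acid oxidation and peroxisomes, CROT, HADHA (0.46) and HADHB (0.53) rose (8.11%), and all 3 lie in runs. SEMA3A (1.60, with 1.32 for shRNA 162) and SEMA3E (0.70), secreted guidance proteins, alone passed among 45 measured semaphorins, plexins and other axon guidance genes (4.44%). RFC2 was lost without control clone 1. E2F6 lasted only without shRNA 159 clone 2, CCND2 was lost without either control clone, HADHA in each of the 4 fits and HADHB in 3 of them, all but that without shRNA 159 clone 2.

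**Figure D3:**
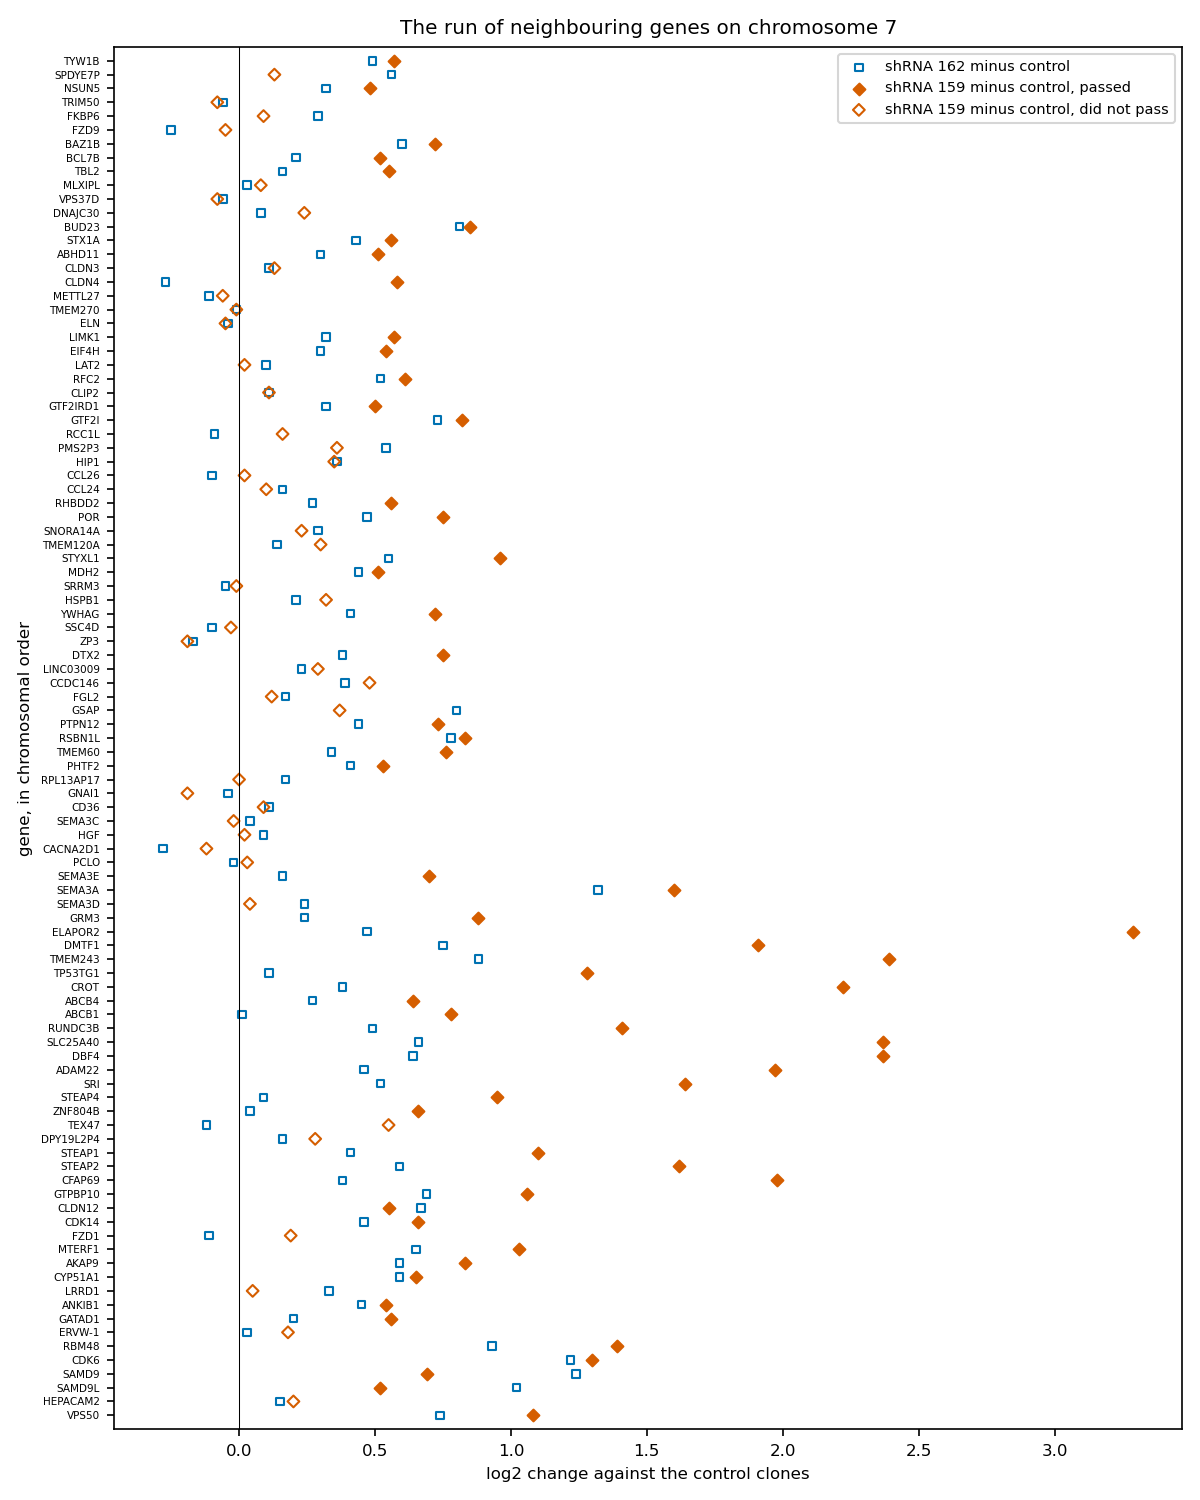
Log2 change against the control clones (horizontal axis) of the 99 measured genes of the chromosome 7 run in chromosomal order (vertical axis), for shRNA 159 (orange diamonds, filled where the gene passed) and shRNA 162 (blue squares). From GRM3 to GTPBP10 shRNA 159 reaches up to 3.29 while shRNA 162 has a median of 0.41, and at CDK6 the hairpins nearly meet at 1.30 and 1.22.

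SLC25A40 and DBF4 start from opposite strands with 132 bases between their starts. The bases between them (chr7:87876361-87876492, GRCh38.p14, plus strand) are shown as the shared upstream stretch of a pair with equal changes. Capitals mark GGGCGG, the letters of a GC box, which stood on either strand in 60.0% of all promoter windows.
DBF4: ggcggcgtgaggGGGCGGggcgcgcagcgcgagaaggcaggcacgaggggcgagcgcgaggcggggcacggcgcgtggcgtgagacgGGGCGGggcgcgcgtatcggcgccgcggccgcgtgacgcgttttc

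Among 680 such head-to-head pairs of measured genes, at least 1 gene passed in 30 and both passed in 11, where 2.49% of all genes passed. Both changed in the same direction in 11 of the 11, and 10 of these pairs lay in a run. The runs were picked for change in a single direction, and no run held a passing gene of the opposite direction. The shared direction of the 10 pairs therefore follows from the runs and is no separate result. In the chromosome 7 run the pairs were STYXL1 (0.96) with MDH2 (0.51), TMEM60 (0.76) with PHTF2 (0.53), the non-coding TP53TG1 (1.28) with CROT, and SLC25A40 with DBF4. The pair outside the runs, SMC6 (0.41) and GEN1 (0.61), is also on chromosome 2. HADHA with HADHB, which encode the 2 subunits of the mitochondrial trifunctional protein, was a pair in a chromosome 2 run.

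On chromosome 2, 4 runs held 170 genes, of which 72 rose and none fell. Over the whole chromosome, 100 of 1155 genes rose (8.66%), against 1.7% of all genes. The runs reached from KIDINS220 to NOL10 (median 0.44), from LDAH to SELENOI (0.38), from PPM1G to THUMPD2 (0.35) and from PREPL to REL (0.30). With shRNA 162 their medians lay between 0.00 and 0.09, and 55 of the 170 genes were higher with shRNA 159 than with shRNA 162. The changes were small, the largest being EPCAM (0.94), EPAS1 (0.93), the postsynaptic protein gene CRIPT (0.85), the nucleolar protein gene NOL10 (0.79) and EFEMP1 (0.78). ODC1, the first enzyme of polyamine synthesis, rose by 0.49 from 11.54 and 11.56 to 12.06 and 12.02, with 0.48 for shRNA 162. EFEMP1 fell by 0.36 with shRNA 162, and the hairpins differed by 1.15 (limma adjusted p = 0.00024). Of the 72 calls, 11 remained without control clone 1, 8 without control clone 2, 16 without shRNA 159 clone 1 and 63 without shRNA 159 clone 2.

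On chromosome 9, a run from GLIS3 to PSIP1 held 39 genes with a median of 0.46, and a shorter one from SMU1 to NOL6 held 9 with a median of 0.43. In the first, 21 genes rose and 21 were higher than with shRNA 162, where the median was 0.01. CD274, the immune checkpoint ligand PD-L1, stood at 8.81 and 8.78 in the control clones, 9.91 and 9.79 with shRNA 159, and changed by 0.03 with shRNA 162. It rose by 1.05 (SE 0.08, limma adjusted p = 0.0007). JAK2, the kinase of cytokine receptors, was dim at 6.69 and 6.48, then stood at 7.64 and 7.37, and rose by 0.92. Its call was lost without control clone 2. The histone demethylase KDM4C rose by 0.89, the transcription factor GLIS3 by 1.03 and the chromatin-binding PSIP1 by 0.97. NFIB, another transcription factor, rose by 0.75 with shRNA 159 and fell by 0.53 with shRNA 162 (difference 1.28, limma adjusted p = 0.00029). Without control clone 2, 11 of the 26 calls in both runs remained, and 17 to 23 without the other arrays.

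On chromosome 17, the run from TRAF4 to GOSR1 was the only one of lower signals. Of its 27 genes 13 fell and none rose, with a median of -0.38, against 0.02 with shRNA 162. The kinase gene TAOK1 fell by 0.76, NUFIP2 by 0.75, the carboxypeptidase CPD by 0.74 and GIT1, an adaptor of focal adhesions, by 0.73. FLOT2, a flotillin of membrane rafts, stood at 9.59 and 9.49 in the control clones and at 8.88 and 8.84 with shRNA 159. In all, 16 of the 27 genes were lower than with shRNA 162 (4.64% of all rows were). Without either control clone 3 of the 13 calls remained, with 11 without shRNA 159 clone 1 and 8 without shRNA 159 clone 2.

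**Figure D4:**
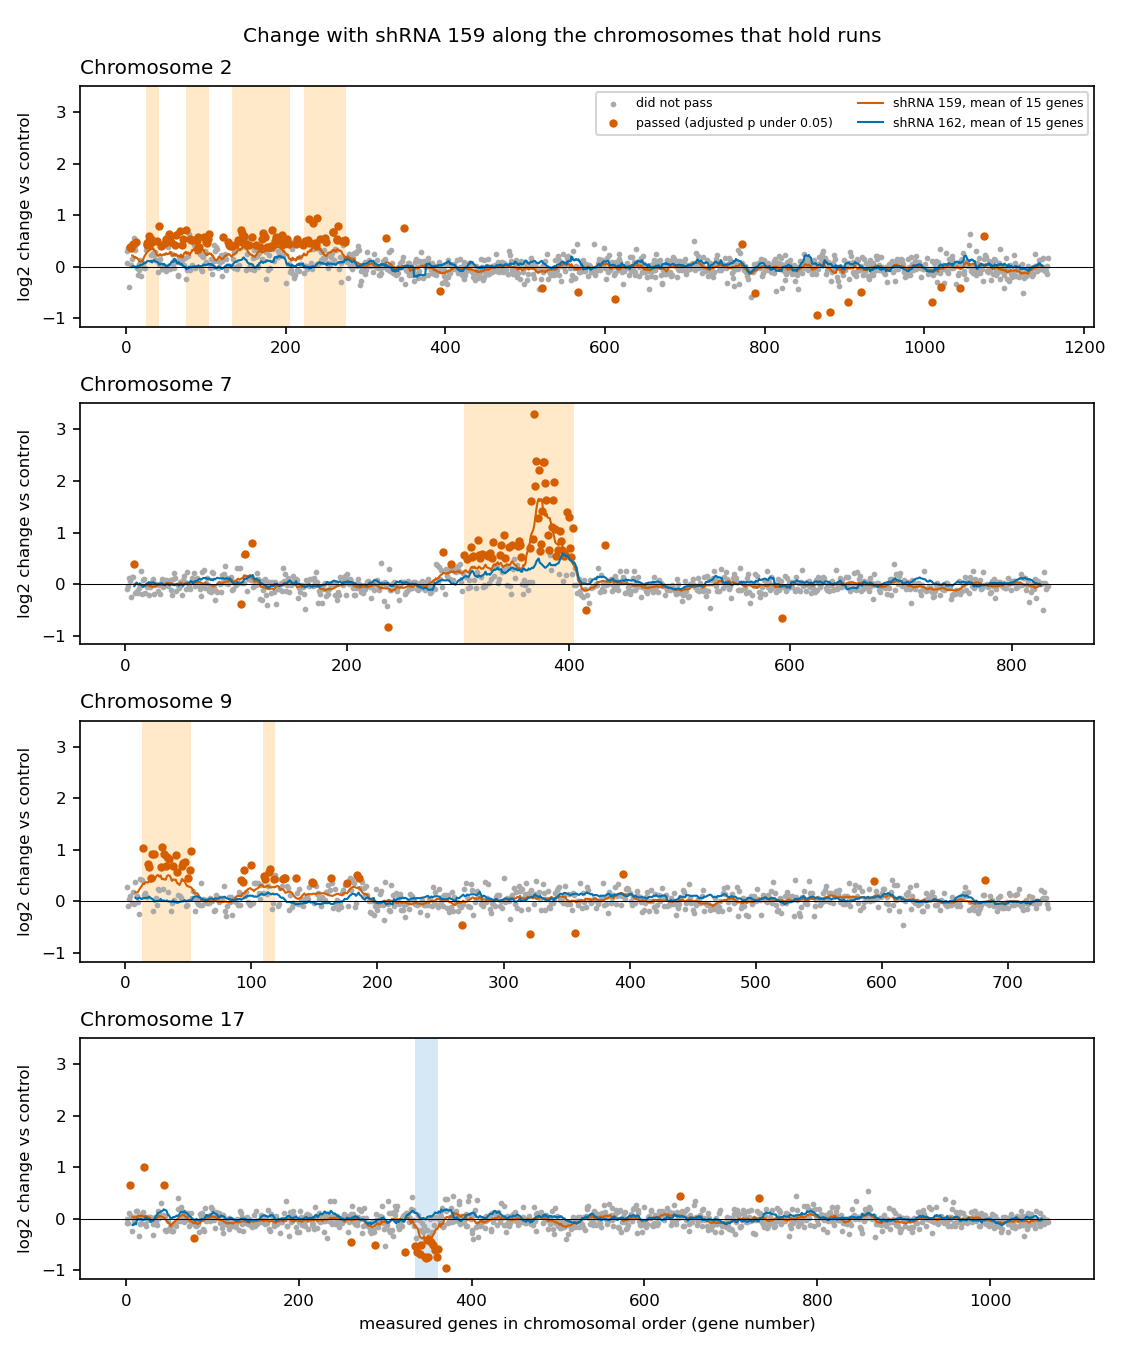
Log2 change against the control clones (vertical axis) of each measured gene along chromosomes 2, 7, 9 and 17 (horizontal axis, gene number in chromosomal order), with passing genes in orange, runs shaded, and the mean of 15 consecutive genes as a line for shRNA 159 (orange) and shRNA 162 (blue). The orange line departs from 0 in the shaded runs and the blue line does so along the chromosome 7 run, where its median was 0.30.

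With shRNA 159 against shRNA 162, 1836 rows passed (8.65%), 852 higher with shRNA 159 and 984 lower. With quantile normalization the split was 1071 higher and 855 lower. The count was 597 without shRNA 162 clone 1, 651 without shRNA 162 clone 2 and 1204 without shRNA 159 clone 2. Of the 537 rows that passed against control, 289 were among them. Of the 20 largest increases 15 differed between hairpins, and so did 15 of the 20 largest decreases. These rows and genes were picked by their shRNA 159 values, which the test between hairpins uses again, so both counts are descriptions. TULP3, BCHE, SEMA3A, RBM48 and CDK6 were the increases that did not pass between hairpins, and F2RL2, HAS2, CD96, ADAMTS1 and AOX1 were such decreases. Some of them came near the threshold. BCHE differed by 0.56 (SE 0.15), SEMA3A by 0.29 (SE 0.08) and RBM48 by 0.46 (SE 0.14), with limma adjusted p = 0.053, 0.06 and 0.076. For HAS2 the difference was 0.10 (SE 0.13) and for CD96 it was 0.01 (SE 0.11), which does not show that the hairpins act alike.

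Among protein-coding genes taken by 1 row with 1 symbol, LILRA2, a leukocyte receptor gene, had the largest gap between the shRNA 159 clones, 5.90 in clone 1 and 6.83 in clone 2. LIPN, CRYAB, LYRM9 and PCDHB3 were also higher in clone 2, by up to 0.84, and PDC, FAM200B, ZNF860, ZNF729 and ZBTB20 were higher in clone 1, by 0.64 to 0.71. None of these 10 passed against control.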

How the data were processed

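Total RNA of 6 MDA-MB-231 clones was measured on Affymetrix Human Gene 1.0 ST arrays. The deposited log2 signals per probe set were processed by the authors with the Exon Array Computational Tool, per the series' design text. The settings of that tool are not stated in any source used here, so its background correction and normalization are unknown. Values ran from 2.29 to 14.65, from which the log2 scale was taken. Rows were named through the platform's probe table (19460 rows with 1 symbol, 1754 with several, 12083 with none), and 403 rows repeat the values of an earlier one. Unscaled values entered 1 limma fit (version 3.58.1, R 4.3.3) with 3 group means on all 6 arrays (3 residual and 5.31 prior degrees of freedom), and shRNA 159 was contrasted with control and with shRNA 162. The third group adds to the estimate of the spread.

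Named genes were TAX1BP3, the 20 largest increases and 20 largest decreases among passing protein-coding rows with 1 symbol whose clones lay outside the control range, up to 4 passing members of each list with the smallest p, passing run members and the 5 largest clone differences each way. Genes named as not passing, the next increases outside runs, and the further passing members of the 2 longest lists of calls, were chosen after their values were seen. Where a gene had more than 1 row its brightest was taken, which left 18417 genes, 18389 of them placed with RefSeq (GRCh38.p14). In all, 47 lists (1530 of 1661 genes measured) were used, of which 1 is left unreported here. The members and lists were chosen with earlier results of these data known. Alternatives were a replicate block, other sets of rows, a variance trend, quantile normalization, 4 arrays only and leaving out each array. Leaving out run genes and counting identical rows once were added after seeing the data. The fit was tested on simulated data. Sequences come from RefSeq promoter windows. Plots used Python 3.11.15 (matplotlib 3.10.9).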

Additional observations from a re-analysis of the deposited data

Results flagged for a closer look

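In 7 genes the hairpins moved in opposite directions against the same control clones, each passing with either hairpin, and the difference itself was tested (limma). TENM2 differed by 1.75 (shRNA 159 minus shRNA 162), EPAS1 by 1.51, EFEMP1 by 1.15, NFIB by 1.28, AK3 by 0.81, MCFD2 by 0.78 and ADAM9 by -0.75. EPAS1, EFEMP1 and MCFD2 lie in the same chromosome 2 run, and NFIB and AK3 in the same chromosome 9 run. ADAM9 lost its call against control whichever of the 4 compared arrays was left out, MCFD2 and AK3 in 3 of these 4 fits, and NFIB without control clone 2.

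Outside the tested rows, 7 of the 12083 rows with no gene symbol passed for shRNA 159 against control when every row of the table was fitted together (0.0579%), 5 higher and 2 lower.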

How the results depend on the processing

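TAX1BP3 kept its direction and its call in every alternative run, between -1.25 and -1.16 with 1 array left out. The count of 537 rows for shRNA 159 against control became 111 with all rows of the table, 946 with the brighter rows only, 1137 with a variance trend and 44 at 2-fold or more, and lay between 142 and 512 with 1 array left out. For shRNA 159 against shRNA 162 the count of 1836 became 593 with all rows and 3022 with a variance trend, and lay between 597 and 1352 with 1 array left out (597 without shRNA 162 clone 1 and 651 without shRNA 162 clone 2). A lone array was assumed to vary like the other groups. Quantile normalization turned the 852 higher and 984 lower rows of that comparison into 1071 and 855, and gave 357 higher and 208 lower against control. With identical rows taken once, 525 rows passed against control. The clone numbers were not shown to pair the samples: differences between clones 1 and 2 correlated at 0.26 for control and shRNA 159, -0.05 for control and shRNA 162 and -0.03 for both hairpins. With the clone number as a replicate block, 584 rows passed against control, 519 of them shared, and 1983 between hairpins. Of 108 genes named from the largest changes and the lists, 107 kept their call with the block, 104 with quantile normalization, 95 with only the 4 arrays compared (377 rows passed), 59 with all rows, and 74, 66, 80 and 93 without control clone 1, control clone 2, shRNA 159 clone 1 and shRNA 159 clone 2. The brighter rows held 68 of the 108, and all 68 passed. None of the 108 changed direction. Rows near background limit what can be said of dim genes, and 2 clones per group limit the smaller changes.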
